A study of Mus musculus with 9 samples.

Results

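The 9 genes described here encode cell surface proteins by which mouse mesenchymal stem cells are commonly recognised: Ly6a, Nt5e, Thy1, Eng, Ngfr, Mcam, Pdgfra, Pdgfrb and Cd9. They were taken by symbol from the linear RNA tables, where each matched 1 of 31405 genes. RNA came from mouse bone marrow mesenchymal stem cells of a commercial stock after 7 days of culture in 3 conditions with 3 libraries each. Proliferation medium (PM) was DMEM with fetal bovine serum and antibiotics. Osteogenic medium (OM) contained dexamethasone, a synthetic glucocorticoid, at 100 nM, ascorbic acid at 0.2 mM and beta-glycerophosphate at 10 mM, and the C2S group received osteogenic medium with the ceramic dicalcium silicate. The labels list several C2S doses without tying one to the sequenced cultures, so no dose is given here. All cells came from the same purchased product. Whether each library had its own culture is not stated in the labels, so p-values measure the spread between these libraries, which may be technical. Strain, age and sex of the mice are not given in the sources used here.

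Mesenchymal stem cells are the fibroblast-like stromal cells of the marrow, which can form bone, cartilage and fat. No single protein defines them, and they are identified by sets of surface proteins together with the absence of blood cell proteins. Thy1, Nt5e and Eng are the classical human set (CD90, CD73 and CD105), whereas Ly6a (Sca-1) together with Pdgfra is widely used to isolate the mouse cells. Ngfr (CD271), Mcam (CD146) and Pdgfrb mark stromal and perivascular cells of human marrow.

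Levels are FPKM, which correct read numbers for the length of a transcript and the size of a library, so genes can be compared with each other per length. The steps between low values gave 29579800 to 38760600 reads behind a library. Rn7sk, which encodes the 7SK RNA, took up 28.8% to 36.1% of all FPKM. Genes with at least 1 FPKM in at least 3 libraries, 13049 in all, were tested with limma on log2(FPKM + 1), and every adjusted p below is from limma with Benjamini-Hochberg adjustment over all of them. A fold change is on that scale, which understates the change of low genes, and its ± is a standard error. Group values are mean ± SD with n = 3. Of the 9 members 8 were tested, and Thy1 was not, since it reached 1 FPKM in 1 library. Nt5e, Eng and Ngfr passed that minimum only through the PM libraries, and Mcam through these and 1 OM library, so a lower level of these 4 elsewhere was favoured by the filter. Each was also tested without the filter. For listed genes that reached 1 FPKM in only some groups, the filter likewise favoured a higher level there.

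The markers fell into an abundant and a scarce set. In PM, Ly6a stood at 624 ± 73.9 FPKM, Cd9 at 256 ± 17.3, Pdgfra at 137 ± 9.27 and Pdgfrb at 43.6 ± 3.997. The other 5 were far lower, at 2.53 ± 0.341 for Nt5e, 1.64 ± 0.0692 for Ngfr, 1.47 ± 0.137 for Mcam, 1.32 ± 0.0734 for Eng and 0.988 ± 0.197 for Thy1. Ly6a ranked between 40 and 72 among all genes in the 9 libraries, and Thy1 between 12047 and 13976. The mouse pair of Ly6a and Pdgfra was thus abundant in every library, and the transcripts of the classical human set were each below 3 FPKM in every library.

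**Figure D1:**
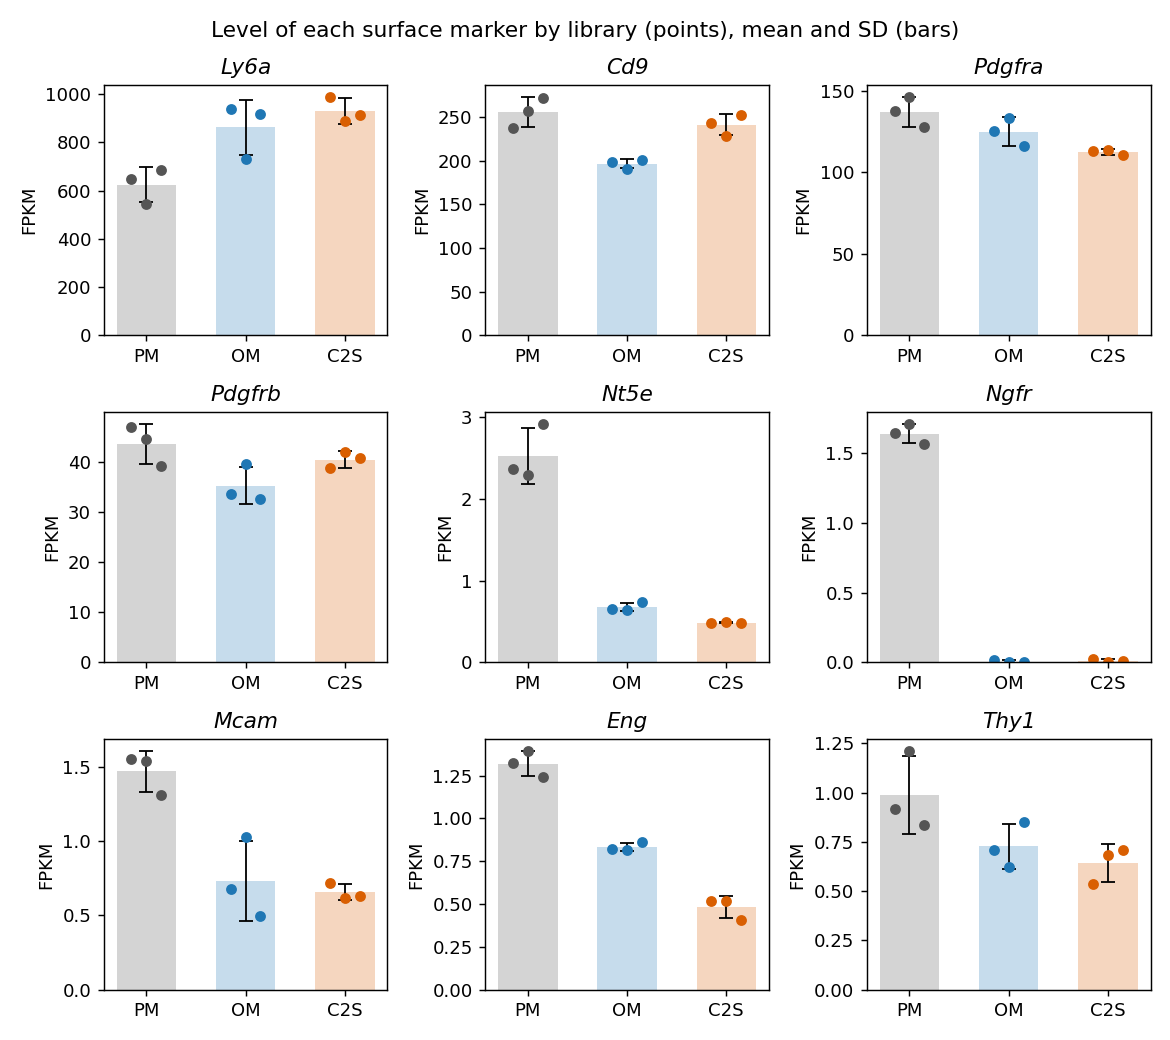
FPKM of each marker (y axes, linear and starting at 0) in PM, OM and C2S (x axes); points are libraries, bars group means and whiskers SD (n = 3). Among the 4 abundant genes no group means differ by more than 1.49-fold, while Nt5e, Ngfr, Mcam and Eng have their highest values in PM, with Ngfr near 0 elsewhere.

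In OM against PM, Ngfr was nearly lost, Nt5e, Mcam, Eng, Cd9 and Pdgfrb fell, Ly6a rose and Pdgfra did not pass. This comparison asked what the osteogenic supplements changed. Of the 8 tested members 1 rose and 6 fell, where 27.1% of all tested genes rose and 27.7% fell, 54.8% in all. The filter favoured falls of the scarce members, so that count and the median of the members are descriptions. The median log2 change was -0.36 over the 8 members and 0.0028 over all tested genes. The libraries of OM and PM did not overlap for 6 of the 8, 1 higher and 5 lower, beside 58.5% of all tested genes (29.3% higher, 29.2% lower). C2S against OM asked what the silicate added. Eng fell further and Cd9 rose there, and the other 6 tested members did not pass, beside 22.0% of all tested genes called, 10.6% higher and 11.5% lower. Its libraries were apart for 3 members that were lower, Nt5e, Eng and Pdgfra, beside 23.3% of all genes, and for 1 that was higher, Cd9, beside 19.9%. In C2S against PM, which shares its libraries with the other 2 comparisons, 1 tested member rose, 5 fell and 2 did not pass, beside 56.0% of all genes called (27.6% higher, 28.4% lower). Its libraries were apart for 6 members, beside 63.6% of all genes, with 1 higher (31.6%) and 5 lower (31.9%). The counts of listed genes below are to be read beside these shares of all tested genes called, and no set test was made.

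**Figure D2:**
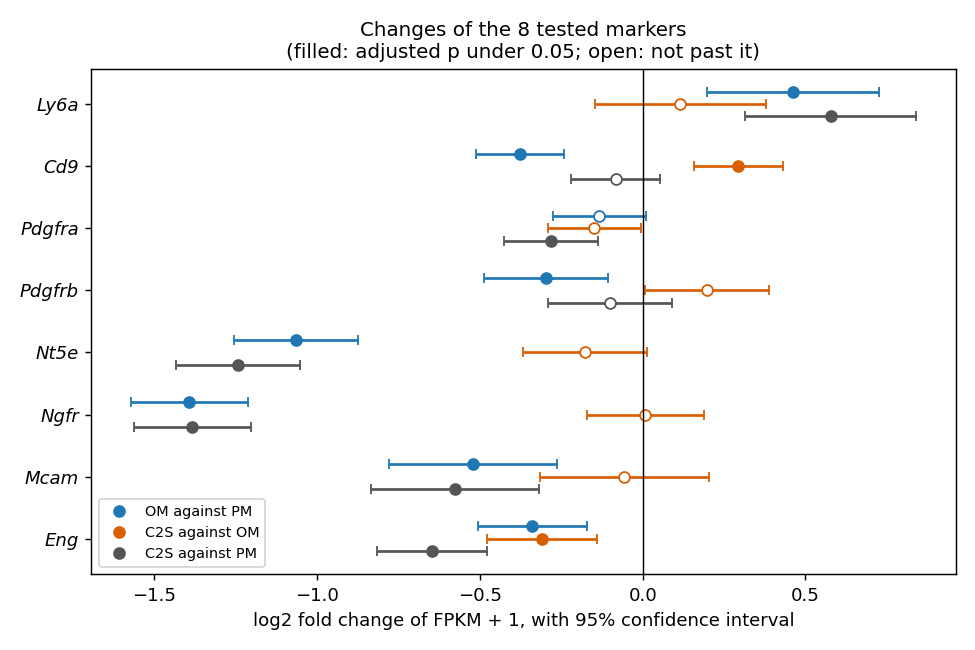
Log2 fold change of FPKM + 1 (x axis) with its 95% confidence interval for the 8 tested markers (y axis) in the 3 comparisons; filled points have an adjusted p under 0.05. Ngfr and Nt5e lie farthest to the left in OM and in C2S against PM, and in C2S against OM the filled points are those of Cd9 (0.29) and Eng (-0.31).

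Ngfr encodes the p75 neurotrophin receptor, a death-domain receptor for neurotrophins (ENSMUSG00000000120, chromosome 11, positions 95568818 to 95587735, mm10). It was listed at 1.64, 1.71 and 1.57 FPKM in PM replicates 1, 2 and 3. The OM libraries had 0.0162, 0 and 0, and those of C2S 0.0252, 0 and 0.0092. Every PM library was high and every library with the supplements was at or near 0, so PM did not overlap with either group, while OM and C2S overlapped. In reads these were 189, 199 and 160 in PM, 2, 0 and 0 in OM and 3, 0 and 1 in C2S. A library with 0 reads allows up to 3, which in OM replicate 2 is 0.0225 FPKM. Per read sequenced, PM exceeded OM 298-fold, with an exact 95% interval of 82.0 to 2464, from 548 against 2 reads, and it exceeded C2S 141-fold (54.9 to 521), from 548 against 4. These intervals cover counting error only. On the tested scale the fall in OM was -1.39 ± 0.080 (adjusted p = 8.8e-07), lower in 3 of 3 libraries. That of C2S against PM was -1.38 ± 0.080 (adjusted p = 8.6e-07), again in 3 of 3. With no filter on low values the adjusted p was 1.6e-07 in OM. C2S against OM gave 0.0086 ± 0.080 with a 95% interval of -0.17 to 0.19 (adjusted p = 0.951). In a bulk sample, fewer cells that carry a transcript and less of it per cell cannot be told apart.

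Several other genes of neurotrophin signalling fell in OM beside Ngfr. Of 17 listed genes 9 were tested. In OM against PM 1 rose, 5 fell and the call was missed by 3, beside 27.1% of all tested genes higher and 27.7% lower. Sort1, the sortilin co-receptor with which p75 binds proneurotrophins, went from 3.04 ± 0.237 to 0.616 ± 0.0618 FPKM (-1.32, adjusted p = 1.1e-06). Nradd, a p75-like death-domain receptor, fell from 23.8 ± 1.59 to 10.7 ± 0.543 (-1.08), and the ligand gene Ntf5, for neurotrophin-4, from 1.65 ± 0.165 to 0.545 ± 0.0876 (-0.78). The sortilin relative Sorcs2 rose (0.68, adjusted p = 2.3e-04). The list's median log2 change was -0.35. Sort1 and Ntf5 reached 1 FPKM only in PM, so the filter favoured their falls, and the list's count and median are descriptions. Of the 9, C2S against OM called 1 higher, the ligand gene Bdnf (0.15, adjusted p = 0.0399), and 1 lower, Maged1 (-0.19, adjusted p = 0.0110), whose product binds p75. Markers of Schwann cells, which carry p75 in nerve, were low. Of 9 listed, 8 stayed below 1 FPKM in every library, Sox10 was at or below 0.0125, and the summed level ranged from 4.18 to 4.61 FPKM in PM, 3.50 to 4.002 in OM and 2.47 to 2.64 in C2S. The tested gene of that list, the myelin gene Mbp, fell in OM (-0.26, adjusted p = 0.0093) and again in C2S against OM (-0.38, adjusted p = 0.0052). Their part in the loss of Ngfr was not tested.

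The tested genes most like Ngfr, by the root mean square difference of centred log2(FPKM + 1) over the 9 libraries, were Pdzd4 (0.0365), Rxfp1 (0.0600) and Lipg (0.0604). Rxfp1, the relaxin receptor, went from 1.89 ± 0.218 FPKM in PM to 0.128 ± 0.0208 in OM, and stood at 0.155 ± 0.0344 in C2S. Lipg, which encodes endothelial lipase, had 4.04 ± 0.342, 0.862 ± 0.101 and 0.930 ± 0.0185. Pdzd4 had 5.28 ± 0.116, 1.38 ± 0.0289 and 1.32 ± 0.0734. All 3 had their highest level in PM, which follows from their choice by likeness to Ngfr, and the measure says nothing of shared control. Rxfp1 and Lipg reached 1 FPKM only in PM, so the filter favoured this too. They kept higher FPKM than Ngfr in OM and C2S. The scale of FPKM + 1 shrinks the loss of Ngfr, so likeness on it is not likeness of fold change in FPKM.

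Nt5e encodes the GPI-anchored ecto-5'-nucleotidase CD73, which makes adenosine from AMP outside the cell (ENSMUSG00000032420, chromosome 9, positions 88327197 to 88372092). Its levels were 2.37, 2.29 and 2.92 FPKM in PM, 0.656, 0.646 and 0.739 in OM, and 0.486, 0.490 and 0.482 in C2S. All PM libraries lay above all OM libraries, and these above all C2S libraries. The values rested on 310 to 345 reads in PM, 90 to 100 in OM and 61 to 67 in C2S. It fell in OM (-1.07 ± 0.084, adjusted p = 7.1e-06), to 26.9% of the PM mean. The fall in C2S against PM was -1.24 ± 0.084 (adjusted p = 2.4e-06), to 19.2%. Without the filter the adjusted p in OM was 5.7e-05. The further step in C2S against OM, to 71.4% of the OM mean, did not pass (-0.18 ± 0.084, interval -0.37 to 0.014, adjusted p = 0.166), although the libraries did not overlap. Libraries were apart in this way for 43.2% of all tested genes. Nearest to Nt5e in pattern were Pdcd4 (0.0485), Nbl1 (0.0536) and Enpp5 (0.0582). Pdcd4, a translation inhibitor, had 89.0 ± 4.98, 43.0 ± 1.38 and 36.9 ± 1.59 FPKM in PM, OM and C2S.

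Downstream of Nt5e the adenosine receptor gene Adora2b moved the other way. It went from 8.43 ± 0.196 FPKM in PM to 23.2 ± 1.02 in OM (1.36, adjusted p = 3.7e-08) and 30.9 ± 1.37 in C2S (0.40 against OM, adjusted p = 8.5e-04). Of the 16 listed genes of the extracellular adenosine pathway 6 were tested. In OM against PM 2 rose, 2 fell and 2 did not pass, with a rise of the nucleoside transporter Slc29a1 (0.32) and falls of Enpp1 (-0.80), an ectonucleotidase that acts on ATP, and the adenosine deaminase Ada (-0.20). Against OM, 3 rose and 0 fell in C2S, namely Enpp1 (0.61), Adora2b and Slc29a1 (0.35). The receptor genes Adora1 and Adora2a, named here for their role, stayed at or below 0.274 FPKM. The list's medians were 0.0028 and 0.26. Over all tested genes 27.1% rose and 27.7% fell in OM against PM, and 10.6% rose and 11.5% fell in C2S against OM.

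Mcam encodes an adhesion molecule of the immunoglobulin superfamily that binds laminins containing the alpha-4 chain (ENSMUSG00000032135, chromosome 9, positions 44134469 to 44142727). It stood at 1.55, 1.54 and 1.31 FPKM in PM, 0.681, 1.03 and 0.494 in OM, and 0.717, 0.615 and 0.634 in C2S. PM lay above both other groups without overlap, and the OM libraries spread around those of C2S. It fell in OM (-0.52 ± 0.11, adjusted p = 0.0040), and for C2S against PM the fall was -0.58 ± 0.11 (adjusted p = 0.0022), with 45 to 156 reads behind each value. Without the filter the adjusted p in OM was 0.0121. C2S against OM gave -0.056 (interval -0.31 to 0.20, adjusted p = 0.762). The antisense gene Gm10687 overlaps exons of Mcam and stayed at or below 0.0209 FPKM. Lama4, which encodes the laminin alpha-4 chain, was nearly lost beside it, from 2.06 ± 0.207 FPKM in PM to 0.0238 ± 0.0030 in OM (-1.58, adjusted p = 5.6e-07) and 0.0194 ± 0.0170 in C2S. Lama4 reached 1 FPKM only in PM, so the filter favoured this fall. Mural cells of vessels carry Mcam. Of 10 listed pericyte and smooth muscle genes with a row, 6 stayed below 1 FPKM, among them Rgs5 and Abcc9, and the 4 tested all fell in OM, including the actin Acta2 (-1.01) and Ndufa4l2 (-1.40). Ndufa4l2 too reached 1 FPKM only in PM. The summed level of that list was 641 to 672 FPKM in PM, 316 to 348 in OM and 302 to 327 in C2S. Their part in the fall of Mcam was not tested.

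Eng encodes endoglin, a co-receptor for ligands of the TGF-beta and BMP family (ENSMUSG00000026814, chromosome 2, positions 32646595 to 32682669). It was listed at 1.32, 1.39 and 1.24 FPKM in PM, 0.823, 0.814 and 0.863 in OM, and 0.517, 0.520 and 0.406 in C2S. The 3 groups formed 3 separate steps, highest in PM and lowest in C2S. Eng fell in OM to 63.1% of the PM mean (-0.34 ± 0.074, adjusted p = 0.0040) and in C2S to 57.7% of the OM mean (-0.31 ± 0.074, adjusted p = 0.0192). C2S against PM gave -0.65 ± 0.074 (adjusted p = 7.8e-05), and the C2S mean was 36.4% of that in PM. Without the filter the adjusted p was 0.0063 in OM against PM and 0.0330 in C2S against OM. The call in C2S against OM was lost without OM replicate 1 (0.0505), OM replicate 3 (0.0557) or C2S replicate 3 (0.0768), within a range of 0.0105 to 0.0768 over all alternatives. The values rested on 126 to 161 reads in PM, 90 to 108 in OM and 44 to 61 in C2S. Exons of Fpgs on the other strand overlap Eng, and Fpgs stood at 6.90 ± 0.451, 7.13 ± 0.0982 and 6.93 ± 0.257 FPKM.

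The receptor with which endoglin acts for TGF-beta also fell. Tgfbr2, the type II TGF-beta receptor, went from 115 ± 6.74 FPKM in PM to 29.7 ± 2.40 in OM (-1.92, adjusted p = 3.3e-08) and 30.1 ± 1.27 in C2S. Of 22 listed partners 19 were tested, and OM against PM gave 4 rises, 10 falls and 5 without a call, with a median of -0.19. The falls included the ligand gene Tgfb1 (-0.72) and the type I receptor Acvr1 (-0.67), and the BMP target Id1 rose (0.83). Tgfb1 reached 1 FPKM only in PM and C2S, so the filter favoured a lower level of it in OM. Acvrl1, the type I receptor that endoglin assists in endothelium, stayed at or below 0.333 FPKM. C2S against OM gave 4 rises and 2 falls, with rises of Tgfb1 (0.61), Smad3 (0.58) and Tgfbr1 (0.29) and a fall of the inhibitory Smad6 (-0.32). Endothelial cells carry much endoglin. Of 12 endothelial genes with a row, 9 stayed below 1 FPKM in every library. Cdh5, a defining endothelial cadherin, was at or below 0.0169 FPKM. The summed endothelial level was 2.73 to 3.42 FPKM in PM, 3.71 to 4.02 in OM and 4.63 to 4.66 in C2S. Of the 2 tested genes of that list the receptor gene Tek rose in OM (0.60, adjusted p = 1.8e-04), from 0.319 ± 0.0911 to 1.001 ± 0.0557 FPKM, and again in C2S to 1.55 ± 0.0355 (0.35 against OM, adjusted p = 0.0142). Tek reached 1 FPKM only in OM and C2S, so the filter favoured its rise over PM. Egfl7 did not pass, at 1.18 ± 0.0904, 1.07 ± 0.0440 and 1.04 ± 0.0163 FPKM in PM, OM and C2S. Their part in the fall of Eng was not tested.

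Thy1 encodes CD90, a small GPI-anchored immunoglobulin superfamily protein (ENSMUSG00000032011, chromosome 9, positions 44043384 to 44048579), and lies 85.89 kb from Mcam. It was listed at 0.915, 1.21 and 0.838 FPKM in PM, 0.707, 0.6245 and 0.851 in OM, and 0.5345, 0.684 and 0.710 in C2S. The order was the same as for Nt5e and Eng, but neighbouring groups overlapped, and PM was apart from C2S alone. An exact two-sided permutation test, whose smallest possible p is 0.1 at 3 against 3, gave p = 0.2 for OM against PM, 0.5 for C2S against OM and 0.1 for C2S against PM. Without the low-value filter limma gave adjusted p = 0.187, 0.747 and 0.0743. The values rested on 32 to 71 reads per library. For known ligands and partners of Mcam and Thy1, 11 of 15 were tested. In OM against PM 3 rose, 5 fell and 3 did not pass, and beside Lama4 and the guidance cue gene Ntn1 (-0.47), Vegfc (1.003) and the syndecan Sdc4 (0.97), with which Thy1 engages integrins, were among those called. Against OM, 4 rose and 1 fell in C2S, with rises of the integrin Itgb3 (0.76), Sdc4 (0.59), the moesin gene Msn (0.46) and Ntn1 (0.27). The medians were -0.27 and 0.081.

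Promoter sequence is shown for Ngfr, the member with the largest fall in OM, and for Eng and Cd9, which were called in C2S against OM. RefSeq promoters on GRCm38.p6 were used for 6 of the 9 members, and the 250 bases before the RefSeq start were searched. The stretches below stop at the start of the gene in GENCODE M21, and are given 5' to 3' on the strand of the gene. They lie at chr11:95587736-95587948 (minus strand), chr2:32646345-32646594 (plus) and chr6:125494792-125495010 (minus). Capitals mark each GC box, GGGCGG on either strand.
Ngfr: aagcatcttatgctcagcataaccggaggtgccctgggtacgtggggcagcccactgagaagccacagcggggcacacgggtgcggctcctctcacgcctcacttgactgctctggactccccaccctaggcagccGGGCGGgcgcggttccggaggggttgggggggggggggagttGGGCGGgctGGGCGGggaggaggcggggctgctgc
Eng: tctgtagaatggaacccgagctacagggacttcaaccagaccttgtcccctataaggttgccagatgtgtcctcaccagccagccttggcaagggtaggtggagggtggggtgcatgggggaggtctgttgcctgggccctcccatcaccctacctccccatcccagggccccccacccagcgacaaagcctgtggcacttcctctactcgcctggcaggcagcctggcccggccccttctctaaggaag
Cd9: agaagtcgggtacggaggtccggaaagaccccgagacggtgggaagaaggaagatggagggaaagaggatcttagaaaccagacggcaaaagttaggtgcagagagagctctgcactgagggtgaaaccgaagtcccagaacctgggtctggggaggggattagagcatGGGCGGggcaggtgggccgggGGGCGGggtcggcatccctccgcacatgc

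The GC box, a sequence bound by Sp1-type factors, occurred 3 times in the stretch of Ngfr, 2 times in that of Cd9 and 0 times in that of Eng. The whole windows held 4 matches for Ngfr, 4 for Nt5e with overlapping ones counted separately, 5 for Mcam, 2 for Cd9 and 0 for Eng and Pdgfra. Of 32851 mouse promoter windows of the same length 32.7% hold at least 1. The windows of Ngfr, Nt5e and Mcam were rich in G and C, at 70.4%, 72.0% and 73.6% against a median of 52.4%, and held 16, 21 and 25 CpG dinucleotides against a median of 6. That of Cd9 had 61.6% and 16, that of Eng 62.4% and 4, and that of Pdgfra 54.4% and 4. The upper quartile of all windows is 16 CpG dinucleotides. The palindromic glucocorticoid response element (GNACA and TGTNC with 3 bases between them), the AP-1 site TGANTCA, the TATA box TATAAA and the Runx site TGTGGT, also searched on both strands, were in none of the 6 windows. They occur in 0.387%, 6.75%, 12.4% and 14.1% of all windows. A match is a run of letters, and its absence says nothing about the factor.

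Ly6a encodes Sca-1, a GPI-anchored protein of the Ly6 family (ENSMUSG00000075602, chromosome 15, positions 74994877 to 74998031). It was the highest of the 9 members in every library, at 646, 542 and 685 FPKM in PM, 938, 731 and 916 in OM, and 988, 886 and 913 in C2S. All OM and C2S libraries lay above all PM libraries, and OM overlapped with C2S. It rose in OM (0.46 ± 0.12, adjusted p = 0.0082) to 138% of the PM mean. Its rise for C2S against PM was 0.58 ± 0.12 (adjusted p = 0.0024), to 149%, while C2S against OM did not pass (0.12, interval -0.15 to 0.38, adjusted p = 0.513). Under quantile normalization the rise in OM was 0.18 and lost its call (adjusted p = 0.0933, where all alternatives lay between 0.0014 and 0.0933). Of the stretches of 50 bases in its longest transcript, 10.0% also occur in transcripts of other genes, 4.42% in Ly6c1, so some reads could be split. Ly6c1 itself went from 54.4 ± 5.88 FPKM to 77.5 ± 12.05 in OM (0.50, adjusted p = 0.0040). Of 14 listed relatives 4 were tested, and in OM against PM 1 rose, 2 fell, Cd59a (-0.42) and Ly6e (-0.36), and 1 did not pass. C2S against OM gave 1 rise, the urokinase receptor gene Plaur (0.86, adjusted p = 7.2e-04), and 0 falls. The medians were -0.12 and 0.26.

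Cd9 encodes a tetraspanin, a membrane protein with several spans that gathers integrins and other partners (ENSMUSG00000030342, chromosome 6, positions 125460266 to 125494791). It stood at 238, 257 and 272 FPKM in PM, 198, 191 and 200.2 in OM, and 243, 228 and 252 in C2S. The OM libraries lay below all others, and PM and C2S overlapped. Cd9 fell in OM to 76.8% of the PM mean (-0.38 ± 0.060, adjusted p = 6.6e-04) and rose in C2S to 123% of the OM mean (0.29 ± 0.060, adjusted p = 0.01004). C2S against PM gave -0.083 (interval -0.22 to 0.053, adjusted p = 0.272), which passed when libraries were scaled to the sum without Rn7sk (-0.17, adjusted p = 0.0133) or by quantile normalization (-0.11, adjusted p = 0.0497), where all alternatives lay between 0.0133 and 0.619. Gm26728 overlaps exons of Cd9 on the other strand and shares 14.3% of its stretches of 50 bases, but stayed at or below 0.285 FPKM. The antisense gene Gm28809 in an intron went from 2.39 ± 0.330 FPKM in PM to 5.66 ± 0.858 in OM and 6.39 ± 0.356 in C2S.

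Of 28 listed tetraspanins and partners 21 were tested, and in OM against PM 3 rose, 12 fell and 6 did not pass, with a median of -0.32. Among the falls were Tspan11 (-1.30), from 22.1 ± 1.07 to 8.40 ± 0.263 FPKM, Tspan13 (-1.005), Tspan6 (-0.88) and Hbegf (-0.91), a growth factor that binds Cd9. Tspan13 and Tspan6 reached 1 FPKM only in PM, so the filter favoured their falls. In C2S against OM 5 rose, 2 fell and 14 did not pass, with a median of -0.029. The rises were led by Cd53 (0.89), a tetraspanin of blood cells, from 0.835 ± 0.127 to 2.42 ± 0.320 FPKM, followed by Hbegf (0.72), Tspan11 (0.47) and the integrin Itga3 (0.33). Cd53 reached 1 FPKM only in PM and C2S, so the filter favoured a lower level of it in OM. The leukocyte marker Ptprc was at or below 0.0090 FPKM in every library.

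Pdgfra encodes a receptor tyrosine kinase for platelet-derived growth factors (ENSMUSG00000029231, chromosome 5, positions 75152292 to 75198215). Its levels were 137, 146 and 128 FPKM in PM, 125, 134 and 116 in OM, and 113, 113 and 110.5 in C2S. C2S lay below all other libraries, and PM overlapped with OM. Gm42802 and Gm42803 overlap its exons on the other strand, at no more than 0.978 and 0.9965 FPKM. The microRNA gene Mir7025 overlaps exons of Pdgfra on the same strand. Mir7025 stood at 9.085 ± 1.468, 7.714 ± 0.5077 and 4.964 ± 1.918 FPKM in PM, OM and C2S. Pdgfra fell in C2S against PM, to 82.0% (-0.28 ± 0.063, adjusted p = 0.0045). The steps from PM to OM (-0.13, interval -0.28 to 0.010, adjusted p = 0.104) and from OM to C2S (-0.15, interval -0.29 to -0.0045, adjusted p = 0.128) did not pass. The former passed in 4 of 17 alternatives, among them without PM replicate 3 (0.0341), without OM replicate 2 (0.0389) and when scaled to the sum without Rn7sk (0.0448), the alternatives spanning 0.0341 to 0.315.

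Pdgfrb, the related receptor that marks perivascular cells (ENSMUSG00000024620, chromosome 18, positions 61045150 to 61085061), went through another order. It stood at 47.0, 44.6 and 39.2 FPKM in PM, 33.7, 39.6 and 32.7 in OM, and 38.8, 42.0 and 40.8 in C2S. Each pair of groups overlapped. The fall in OM passed (-0.30 ± 0.084, adjusted p = 0.0145), but not without PM replicate 1 (0.0521), OM replicate 1 (0.0513) or OM replicate 3 (0.0525), the alternatives spanning 0.0032 to 0.0525. C2S against OM gave 0.20 (interval 0.0065 to 0.39, adjusted p = 0.127), which passed when OM replicate 2 was left out (0.0379), the alternatives spanning 0.0379 to 0.312. C2S against PM gave -0.10 (interval -0.29 to 0.090, adjusted p = 0.339). The ratio of Pdgfra to Pdgfrb FPKM was 3.15 ± 0.196 in PM, 3.54 ± 0.170 in OM and 2.78 ± 0.126 in C2S. By library it was 2.92311 to 3.27 in PM, 3.37 to 3.71 in OM and 2.70 to 2.92255 in C2S. The 3 groups thus did not overlap, PM and C2S only narrowly, and no test was made of this ratio.

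**Figure D3:**
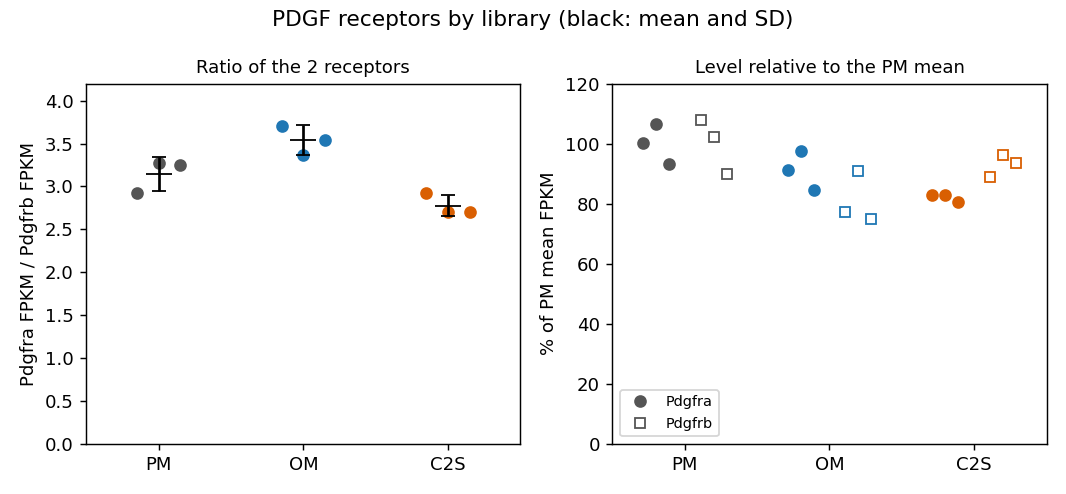
Left, ratio of Pdgfra to Pdgfrb FPKM (y axis) by library, with mean and SD in black (n = 3). Right, each receptor as % of its PM mean (y axis), with filled circles for Pdgfra and open squares for Pdgfrb; in C2S the Pdgfrb points lie above those of Pdgfra.

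The ligand genes of these receptors moved in different directions. Pdgfa fell in OM (-0.49, adjusted p = 3.1e-04), Pdgfc (0.27) and Pdgfd (0.18) rose, and Pdgfb stayed at or below 0.376 FPKM, all named for their role. Of 16 listed genes of PDGF signalling 15 were tested, and in OM against PM 8 rose, 6 fell and 1 did not pass, with a median of 0.18. The called genes with the greatest changes were the matrix protein gene Sparc (-0.86), whose product binds PDGF, the kinase subunit Pik3r1 (0.81), the protease Furin (0.73) and the receptor-like Pdgfrl (0.52). In C2S against OM 2 rose, Ptpn11 (0.28) and Shc1 (0.17), and 2 fell, Nrp1 (-0.23) and Pdgfrl (-0.16), with a median of -0.012.

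Beyond the members, 24 other surface proteins of stromal cells were listed, of which 15 were tested. In OM against PM 2 rose, 10 fell and 3 did not pass, with a median of -0.42. The falls were led by Cd248, the stromal glycoprotein endosialin, from 23.7 ± 1.19 to 8.99 ± 0.532 FPKM (-1.30), Fap (-1.17), Nes (-1.14) and the integrin Itga6 (-0.86). In C2S against OM 6 rose, 0 fell and 9 did not pass, with a median of 0.22. The adhesion molecule Alcam (CD166) went from 0.583 ± 0.0431 to 1.52 ± 0.179 FPKM (0.67, adjusted p = 9.5e-04), the hyaluronan receptor Cd44 from 12.5 ± 1.60 to 19.1 ± 0.423 (0.58, adjusted p = 0.0079), and Itga6 (0.63) and Itga5 (0.60) rose as well. Alcam reached 1 FPKM only in C2S, so the filter favoured its rise.

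**Figure D4:**
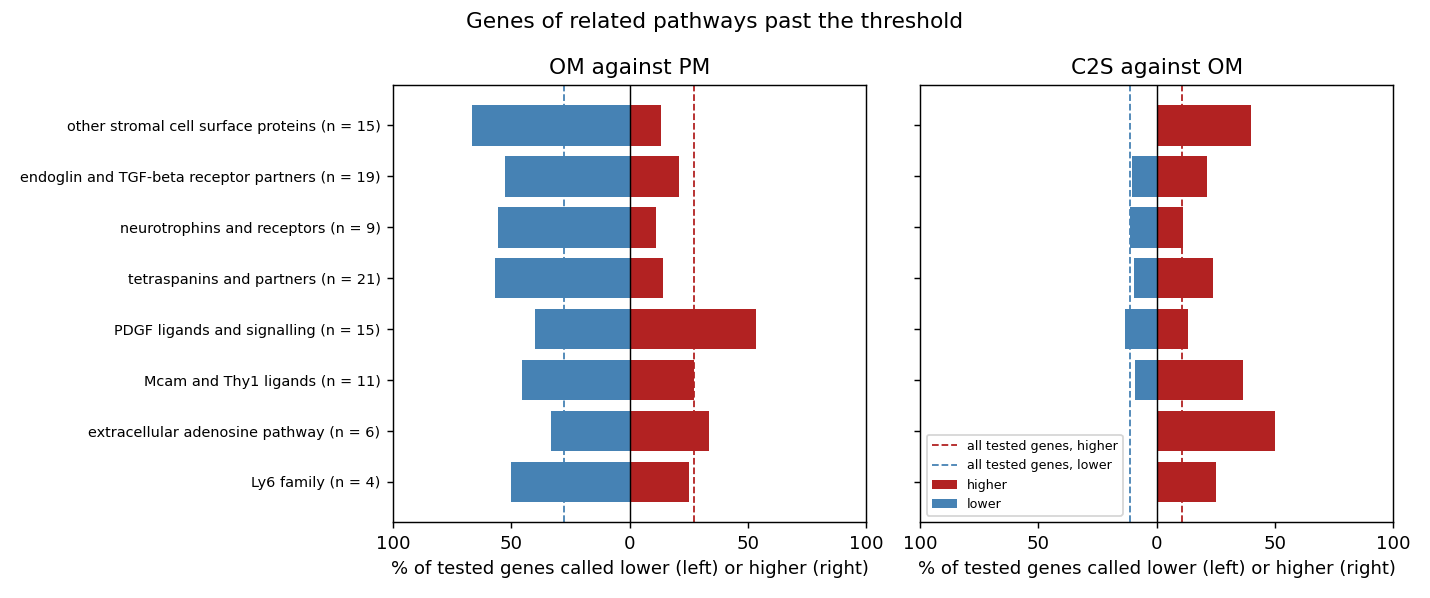
Share of the tested genes of each related list (y axis, n tested) called lower (left, blue) or higher (right, red) at an adjusted p under 0.05, in % (x axis), for OM against PM and C2S against OM; dashed lines give the shares of all 13049 tested genes. The list of other stromal cell surface proteins leans left in OM against PM (10 of 15 lower) and right in C2S against OM (6 of 15 higher).

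In C2S against PM 27.6% of all tested genes rose and 28.4% fell. Beside these shares the lists gave 4 rises and 8 falls among the 15 other surface proteins, 2 and 1 among 4 Ly6 genes, 3 and 1 among 6 adenosine genes, and 7 and 5 among 15 PDGF genes. They gave 5 and 6 among 19 endoglin partners, 1 and 5 among 9 neurotrophin genes, 3 and 12 among 21 tetraspanin genes and 4 and 4 among 11 ligands of Mcam and Thy1.

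The label of the cells was checked against other markers, whose summed levels are given for PM, OM and C2S in turn. Of 15 stromal genes 12 were tested, and in OM against PM 3 rose and 7 fell, with a median of -0.43. Of the 14 with a row 2 stayed below 1 FPKM in every library, Lepr (at or below 0.422) and Lum (at or below 0.471). The falls included the collagens Col3a1 (-2.16) and Col1a2 (-1.49) and the matrix gene Fn1 (-1.50), while the transcription factor Twist2 rose (1.68). The sums were 2503 to 2641, 1584 to 1690 and 1463 to 1545 FPKM, with Col1a2 falling from 977 ± 36.2 to 347 ± 36.8.

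Of 13 macrophage genes with a row, 10 stayed below 1 FPKM, and of the 3 tested 1 rose and 2 fell in OM against PM, with a median of -0.47. The lipopolysaccharide co-receptor gene Cd14 rose (1.18), from 11.5 ± 1.01 to 27.4 ± 2.90 FPKM. Lysozyme gene Lyz2 fell from 4.04 ± 0.704 to 0.410 ± 0.148 (-1.84, adjusted p = 5.1e-06), and Cd68 fell from 3.19 ± 0.197 to 2.03 ± 0.0066 (-0.47, adjusted p = 2.6e-04). Lyz2 reached 1 FPKM only in PM, so the filter favoured its fall. The sums, 18.3 to 20.6, 27.0 to 32.6 and 37.8 to 44.3 FPKM, followed Cd14, which reached 37.4 ± 3.31 in C2S. Of 13 blood cell and progenitor genes 11 stayed below 1 FPKM, and the hemoglobin genes Hba-a1 and Hba-a2 were at 0. Cd34, which mouse stromal cells can also express, stood at 133 ± 3.56, 91.7 ± 2.97 and 85.8 ± 2.28 FPKM, a fall in OM (-0.53, adjusted p = 6.4e-06).

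Among 5 tested osteoblast genes 2 rose, 1 fell and 2 did not pass in OM against PM. Osteopontin gene Spp1 rose from 16.7 ± 3.99 to 82.9 ± 15.7 FPKM (2.26) and to 179 ± 28.6 in C2S (1.11 against OM, adjusted p = 0.0043). The alkaline phosphatase gene Alpl rose in OM (0.43) and in C2S against OM (0.57). Col1a1 fell in OM, from 98.6 ± 8.10 to 29.9 ± 3.31 FPKM (-1.69). The sums of that list, 116 to 139, 113 to 147 and 204 to 259 FPKM, thus combine opposite changes between PM and OM, and Bglap was at or below 0.135.

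OM against PM gave 3 rises and 1 fall among 5 tested adipocyte genes, with a median of 1.66. The fatty acid binding protein gene Fabp4 rose from 0.432 ± 0.0861 to 15.7 ± 1.19 FPKM (3.54), Plin4 from 3.78 ± 0.307 to 20.3 ± 2.17 (2.15), and Pparg, the regulator of fat cell formation, from 2.13 ± 0.161 to 8.86 ± 0.707 (1.66). The lipase gene Lpl fell from 224 ± 12.8 to 71.2 ± 2.88 FPKM (-1.64) and made up most of the sums of 224 to 247, 113 to 121 and 139 to 153. Fabp4 reached 1 FPKM only in OM and C2S, so the filter favoured its rise over PM. The lipid droplet gene Plin1 was at or below 0.0112. C2S against OM called 3 of the 5 higher, Pparg (0.71), Lpl (0.40) and Cebpa (0.26). The markers of these lists moved with the conditions, and their part in the changes of the members was not tested.

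Circular RNAs were listed for 1 member. Of 6614 listed circRNAs 2 had a member as host, both exonic and from Pdgfra. The circRNA at chromosome 5, positions 75162231 to 75163852, was listed in PM replicate 1 at 146 RPM, and that at 75174945 to 75178062 in OM replicate 1 at 96.3 RPM. Each value stands for 2 back-splice reads and neither was listed in another library, so no comparison was made. Among the tested linear genes 20.6% had a listed circRNA, beside 1 of the 9 members.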

How the data were processed

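RNA of 9 libraries, 3 each of PM, OM and C2S, was measured as linear genes and circular RNAs. Per the submitters' processing notes, STAR, HTSeq and RSEM and the build mm10 were used, with no role or version given. From the authors' deposited files, linear values were taken as FPKM and circRNA values as RPM of circRNA reads, since the headers name no unit. Linear value times the longest GENCODE M21 transcript fell on whole reads for 98.4% to 98.7% of low values (tolerance 0.1 reads), for 30796 of 31405 genes with such a length, and these steps gave the depth. No source used here states whether counting used strand, so reads of genes that overlap on opposite strands cannot be told apart.

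Genes were fitted with limma 3.58.1 (R 4.3.3, mean trend) on log2(FPKM + 1), all 9 libraries in 1 fit with group as factor, and calls made at an adjusted p of 0.05. The fit was tested on simulated data. Confidence intervals are 95%, and Ngfr reads were compared by an exact conditional binomial interval. Alternatives were other pseudocounts, scalings and filters, a fit of the groups compared, a replicate block and leaving out each library. All members are named, with up to 4 called genes per list by size of change, and the 3 nearest profiles of members called with a log2 change of at least 1. Members and lists were chosen with earlier results of these data known. Marker lists covered macrophage, blood, endothelial, pericyte, Schwann, osteoblast, adipocyte and stromal genes.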

Additional observations from a re-analysis of the deposited data

How the results depend on the processing

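Of 408 alternative values of the 8 tested members, 392 kept their direction and side of the threshold. Of the others 7 lost and 7 gained a call, and 2 changed sign. In C2S against OM without 1 library, Mcam ranged from -0.16 to 0.063 (without OM replicate 2) and Ngfr from -0.0011 (without C2S replicate 1) to 0.017, neither called in any setting. The called falls of Ngfr, Nt5e and Mcam in OM and C2S against PM held in all 17 alternatives. With a pseudocount of 0.1 the fall of Ngfr in OM was -4.05 and with 0.01 it was -6.90 (adjusted p = 0.0179), and that of Nt5e was -1.75 and -1.87.

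Leaving out each library moved the number of members called in C2S against OM between 1 and 3, that of pathway list genes between 22 and 36, and that of all genes between 1414 and 3226, against 2, 34 and 2877. The count of all genes was 1414 with C2S replicate 3 left out, 1731 with replicate 2 and 1887 with replicate 1 left out, and the cause was not tested. In OM against PM the members called ranged from 6 to 8. Scaling to the sum without Rn7sk gave 2559 genes higher and 4363 lower in OM against PM, where the values as deposited gave 3542 and 3609, and 2696 and 4325 in C2S against PM, against 3605 and 3706.

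Some libraries of the same number deviated from their group means together, such as PM and OM replicates 2 (correlation over genes 0.395) and 3 (0.374). Others did not, such as PM and OM replicates 1 (-0.024). Correlations were -0.092 to 0.395 for like numbers and -0.469 to 0.187 for unlike ones. The labels state no pairing, so the main fit used none, and whether the numbers pair the libraries was not tested. With the replicate block 8 members were called in OM against PM, adding Pdgfra (adjusted p = 0.0369), 2 in C2S against OM and 6 in C2S against PM, and 7378, 2958 and 7515 genes in all. Thy1, Eng, Mcam and Nt5e rest on 32 to 345 reads per library, fewer than the abundant members.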
